A study of Homo sapiens with 16 samples.

Results

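Potassium channel genes were taken as every gene of the deposited table whose symbol begins with KCN and a further letter and holds no hyphen, which gave 84 of 19898 genes. They comprised 34 pore-forming subunits of voltage-gated channels, 11 accessory subunits of those channels, 13 inward rectifiers (KCNJ), 13 two-pore channels (KCNK), 9 genes of calcium-activated channels (KCNM and KCNN), the sodium-activated KCNT1 and KCNT2, the non-coding KCNQ1OT1 and the regulator KCNRG. A total of 72 reached a normalized value of 10 in 4 or more libraries and were tested, and 12 did not. All libraries came from SH-SY5Y, a human neuroblastoma cell line, differentiated for 15 days into cultures that the labels call dopamine-like neurons. The 4 groups of 4 libraries each were MPP-treated 3D, untreated 3D, MPP-treated 2D and untreated 2D. The 3D cultures grew in a silk and collagen scaffold and were frozen whole, while the 2D cultures grew in dishes and were detached with Accutase. Culture format and harvest therefore cannot be told apart in any comparison of 3D with 2D. Treated cultures received 1 mM MPP (1-methyl-4-phenylpyridinium, a toxin of mitochondrial complex I that is used to model Parkinson's disease) for 48 h from day 13. The line stands in for neurons as a dividing tumour-derived cell, and nothing in the labels says whether replicates were separate cultures, so p-values measure the spread between these libraries. The comparisons asked how the culture format changes the effect of the toxin.

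Potassium channels let potassium leave the cell and so set the resting potential and end the action potential. Voltage-gated channels open on depolarization, and channels of the KCNQ family carry the M-current that damps repetitive firing. Inward rectifiers and two-pore channels carry resting current, and some rectifiers open with G-protein signals or with a fall in ATP. Calcium-activated channels couple firing or calcium entry to hyperpolarization, and in dopamine neurons small-conductance channels of the KCNN family pace the firing.

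For 10 of 72 tested members the effect of MPP differed between 3D and 2D culture, as it did for 15.3% of all genes tested. Promoters of 4 of them are shown because KCNQ5 and KCNK5 moved alike, KCNJ10 had one of the largest positive differences, and KCNT1 went the other way. The letters are the 250 bases before the RefSeq gene start (GRCh38.p14), read 5′ to 3′ on the gene's strand. Capitals mark 3 motifs searched on both strands. They were ACGTG and its variant GCGTG, and the half-site TGACG of cAMP-response elements, which may overlap ACGTG.
KCNJ10, minus strand, chr1:160070161-160070410: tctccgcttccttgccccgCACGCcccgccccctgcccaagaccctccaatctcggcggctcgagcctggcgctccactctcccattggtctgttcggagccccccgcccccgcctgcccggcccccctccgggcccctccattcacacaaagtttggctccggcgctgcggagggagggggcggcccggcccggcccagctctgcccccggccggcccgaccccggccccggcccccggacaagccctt
KCNQ5, plus strand, chr6:72621814-72622063: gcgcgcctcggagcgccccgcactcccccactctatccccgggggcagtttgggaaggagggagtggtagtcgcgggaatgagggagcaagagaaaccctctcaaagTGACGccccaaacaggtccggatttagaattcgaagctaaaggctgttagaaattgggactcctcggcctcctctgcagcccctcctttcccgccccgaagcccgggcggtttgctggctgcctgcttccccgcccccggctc
KCNK5, minus strand, chr6:39229476-39229725: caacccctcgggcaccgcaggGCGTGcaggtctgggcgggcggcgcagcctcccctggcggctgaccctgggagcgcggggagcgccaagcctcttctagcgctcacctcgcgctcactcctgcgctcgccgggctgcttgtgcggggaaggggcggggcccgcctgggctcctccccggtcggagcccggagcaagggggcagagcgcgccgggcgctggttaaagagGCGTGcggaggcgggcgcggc
KCNT1, plus strand, chr9:135701935-135702184: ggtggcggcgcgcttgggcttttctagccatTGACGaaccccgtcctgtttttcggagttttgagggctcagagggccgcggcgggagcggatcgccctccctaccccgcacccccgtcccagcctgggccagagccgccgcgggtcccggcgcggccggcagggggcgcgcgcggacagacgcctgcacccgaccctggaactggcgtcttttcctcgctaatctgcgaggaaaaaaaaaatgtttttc
KCNJ10 held 1 GCGTG, KCNK5 held 2 GCGTG, and KCNQ5 and KCNT1 held 1 TGACG each. None of these 4 windows held ACGTG, while 1 of the 2 windows of KCNS3, which had the highest difference (1.78) and is not shown, held 1 ACGTG. Over 35116 promoter windows of this length, 18.5% held ACGTG, 32.2% held GCGTG and 21.2% held TGACG. Over the 95 windows of the 63 members with an entry, the shares were 15.8%, 26.3% and 15.8%. A match is a description of the letters only.

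Recovered reads came to between 24589435 and 46359070 per library. The 13 mitochondrial mRNAs took between 1.04% and 1.52% of reads in MPP-treated 3D, between 3.3% and 6.84% in untreated 3D, between 0.791% and 0.949% in MPP-treated 2D and between 7.72% and 11.6% in untreated 2D, and untreated 3D replicate 1 had the highest share of its group. Of 10 markers of dopamine neurons 5 were in the table, and their summed normalized count lay between 11911 and 15125 in MPP-treated 3D, between 21963 and 24588 in untreated 3D, between 3897 and 4240 in MPP-treated 2D and between 3949 and 4213 in untreated 2D. The 6 noradrenergic markers summed to 156408 to 199917, 194326 to 225218, 235909 to 252251 and 248835 to 276659 in the same order of groups. This sum exceeded that of the 5 dopamine markers in every group, although the lists differ in number and the counts were not scaled by gene length. Pan-neuronal markers (8 of 8) summed to 69652 to 83447, 73996 to 80217, 128377 to 146965 and 116775 to 130170. Proliferation markers (3 of 3) summed to 4760 to 7964, 7027 to 7631, 5648 to 6889 and 14835 to 17618. Mesenchymal markers (8 of 8) summed to 10379 to 10684, 12734 to 13419, 16474 to 17566 and 16113 to 16897, with PRRX1 at 0 outside MPP-treated 3D. Glial markers (6 of 8 in the table) summed to 669 to 1049 over all libraries, with SOX10 at 0 in untreated 3D, and endothelial and blood markers to at most 17.8. These levels moved with the groups, and their part in the results below was not tested. In bulk samples fewer cells of a type and less RNA per cell cannot be told apart.

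Values are read counts divided by the size factor of the library, called normalized counts below. Changes are log2(value + 1) differences from limma fitted over 16 libraries and 16984 genes, and a gene is called at an adjusted p (Benjamini-Hochberg) under 0.05. Counted over all classes, 29 of 72 tested members were called with MPP in 3D, 17 higher and 12 lower, where 34.6% of all 16984 tested genes were called (17.0% higher and 17.6% lower). With MPP in 2D 28 were called, 14 higher and 14 lower, against 34.5% of all genes (17.7% higher and 16.9% lower). With equal library totals in place of the deposited scaling, 28 were again called, 19 higher and 9 lower. Of these, 23 were among the 28 above, while 5 calls were lost and 5 gained. The median log2 change of all genes was then 0.124, against 0.020 with the deposited scaling. In untreated 3D against untreated 2D 33 were called, 13 higher and 20 lower, against 46.1% of all genes (23.2% higher and 23.0% lower), and with equal totals of nuclear genes 10 were higher and 25 lower. In MPP-treated 3D against MPP-treated 2D 34 were called, 12 higher and 22 lower, against 38.9% of all genes (19.0% higher and 19.9% lower). The difference of effects was called for 10, 5 higher and 5 lower, against 15.3% of all genes (7.00% higher and 8.32% lower), and with equal totals of nuclear genes for 7 higher and 4 lower. The shares of members called were 40.3% with MPP in 3D, 38.9% with MPP in 2D, 45.8% in the untreated pair, 47.2% in the treated pair and 13.9% for the difference. The median log2 change of the members was 0.08, 0.08, −0.16, −0.19 and 0.00 in these 5 comparisons, taking MPP in 3D, MPP in 2D, the untreated pair, the treated pair and the difference in turn, beside 0.00, 0.02, 0.01, 0.01 and −0.02 over all genes.

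**Figure D1:**
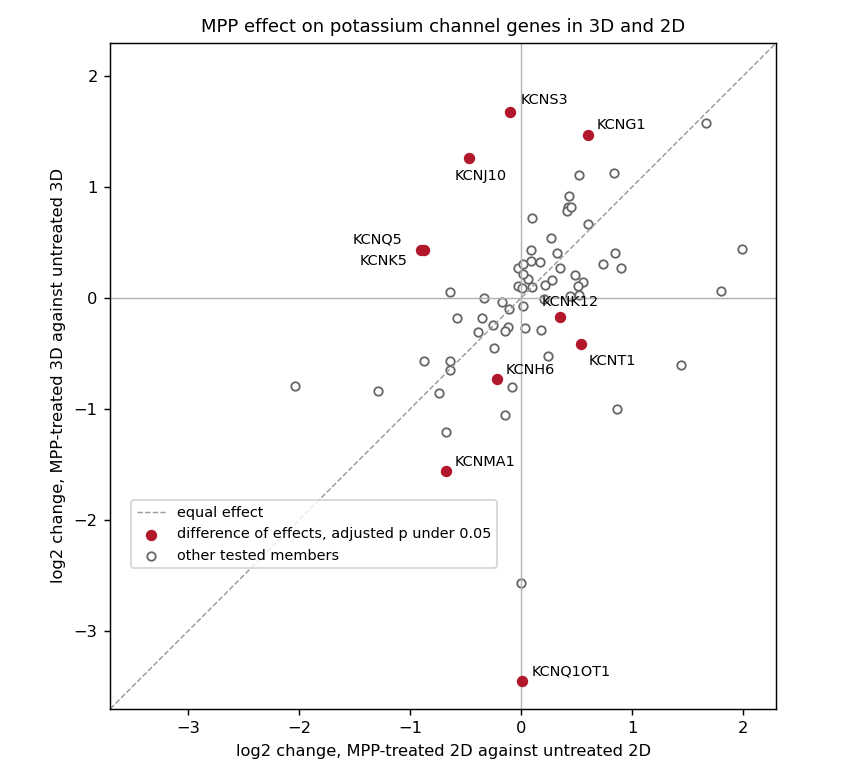
Log2 change with MPP in 3D (y axis) against that in 2D (x axis) for the 72 tested members, with the 10 members whose difference of effects passed in red and the line of equal effect dashed. KCNT1 lies in the lower right at 0.54 in 2D and −0.41 in 3D, and KCNQ1OT1 lies at −3.45 in 3D and 0.01 in 2D.

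By class, voltage-gated pores were called for 14 of 30 with MPP in 3D (8 higher, 6 lower) and 14 of 30 with MPP in 2D (6 higher, 8 lower). Accessory subunits were called for 2 of 9 in 3D and 6 of 9 in 2D, inward rectifiers for 5 of 10 and 1 of 10, two-pore channels for 2 of 12 and 4 of 12, and calcium-activated genes for 3 of 7 and 2 of 7. Over all genes 34.6% were called with MPP in 3D, 34.5% with MPP in 2D and 46.1% in the untreated pair. In the untreated pair the counts were 12 of 30, 2 of 9, 3 of 10, 8 of 12 and 4 of 7 for voltage-gated pores, accessory subunits, inward rectifiers, two-pore channels and calcium-activated genes. The difference of MPP effects was called for 4 of 30, 0 of 9, 1 of 10, 2 of 12 and 1 of 7, with the classes in that order. Over all genes it was called for 15.3%. No difference between classes was tested. MPP moved 7 members up in both formats (among them KCNG1, KCNH2, KCNH8, KCNIP1, KCNJ4 and KCNK17) and 7 down in both (among them KCNAB3, KCNH1, KCNH3, KCNH6, KCNMA1 and KCNN3), of 72 tested, as it did 8.10% and 7.81% of all genes. In 3D against 2D, 8 members were higher in both pairs (among them KCNC1, KCNG4, KCNH4, KCNIP1, KCNK3, KCNK7 and KCNQ1OT1) and 13 were lower in both (KCNC4, KCNH1, KCNH3, KCNJ2, KCNJ5, KCNK1, KCNK6, KCNK10, KCNMB2, KCNMB4, KCNQ3, KCNT1 and KCNT2), as were 11.1% and 12.6% of all genes. Of these, the treated-pair calls of KCNK6, KCNK7, KCNK10, KCNMB2, KCNQ1OT1 and KCNT2 were each lost in 1 to 3 alternatives, each time by leaving out 1 MPP-treated library. The untreated-pair call of KCNIP1 was lost in 16 of 29 alternatives, among them leaving out untreated 3D replicate 1, 3 or 4 or untreated 2D replicate 3 or 4, and that of KCNT1 with untreated 3D replicates 1 and 3 left out together (−0.19, adjusted p = 0.13). Groups did not overlap for 27 of 72 members with MPP in 3D and 31 with MPP in 2D, beside 27.6% and 38.8% of all genes. In the untreated pair 28 did not overlap and in the treated pair 33, beside 39.7% and 37.5% of all genes. Members called in at least 1 of the 4 pairwise comparisons numbered 60, and 12 were called in none, while 73.3% of all genes were called in at least 1.

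Levels between genes were compared as normalized count per kilobase of annotated exon, summed over 80 coding members. The sum left out 3 voltage-gated pores that are not reported here, so each share is of these 80 only. With them in the sum, the shares of KCNH2 and of every other class would be lower. On this scale KCNH2 had the highest mean level of the 80 over the 16 libraries, followed by KCNH6, the two-pore KCNK3, the calcium-activated KCNN1 and the inward rectifier KCNJ9. KCNH2 took 36.1% ± 1.71 of the summed level per kilobase in MPP-treated 3D, 30.5% ± 1.73 in untreated 3D, 34.1% ± 0.556 in MPP-treated 2D and 29.5% ± 0.451 in untreated 2D (SD, n = 4 each). Treated libraries lay above untreated ones in both formats. The summed level per kilobase was 8421 ± 155 in MPP-treated 3D, 7539 ± 508 in untreated 3D, 8637 ± 185 in MPP-treated 2D and 7965 ± 197 in untreated 2D. Without KCNH2 the sum was 5382 ± 58.4, 5236 ± 239, 5692 ± 114 and 5614 ± 115 in the same order of groups. By class, the voltage-gated pores kept in the sum took 60.5% ± 0.947, 58.6% ± 0.434, 60.6% ± 0.608 and 59.4% ± 0.45 of it. Two-pore channels took between 11.2% and 12% in MPP-treated 3D and between 11.3% and 12.8% in untreated 3D, against between 8.92% and 9.83% in MPP-treated 2D and between 9.09% and 9.8% in untreated 2D, so every 3D library lay above every 2D library. KCNK3 alone took 7.26% ± 0.186, 7.21% ± 0.247, 4.25% ± 0.153 and 4.41% ± 0.275 in the same order. The higher class share in 3D was not common to two-pore genes. Of 12 tested, 4 were called higher and 4 lower in untreated 3D than in untreated 2D, beside 23.2% and 23.0% of all genes. Calcium-activated genes took 7.82% ± 0.253, 8.16% ± 0.187, 8.32% ± 0.174 and 9.1% ± 0.528, and only the 2D groups of that class did not overlap with MPP, the treated ones being lower. Inward rectifiers took between 9.99% and 11.3% in MPP-treated 3D and between 9.63% and 9.94% in untreated 3D, against between 10.3% and 10.7% in MPP-treated 2D and between 9.85% and 10.7% in untreated 2D, and with MPP the groups overlapped in 2D alone. No share was tested.

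**Figure D2:**
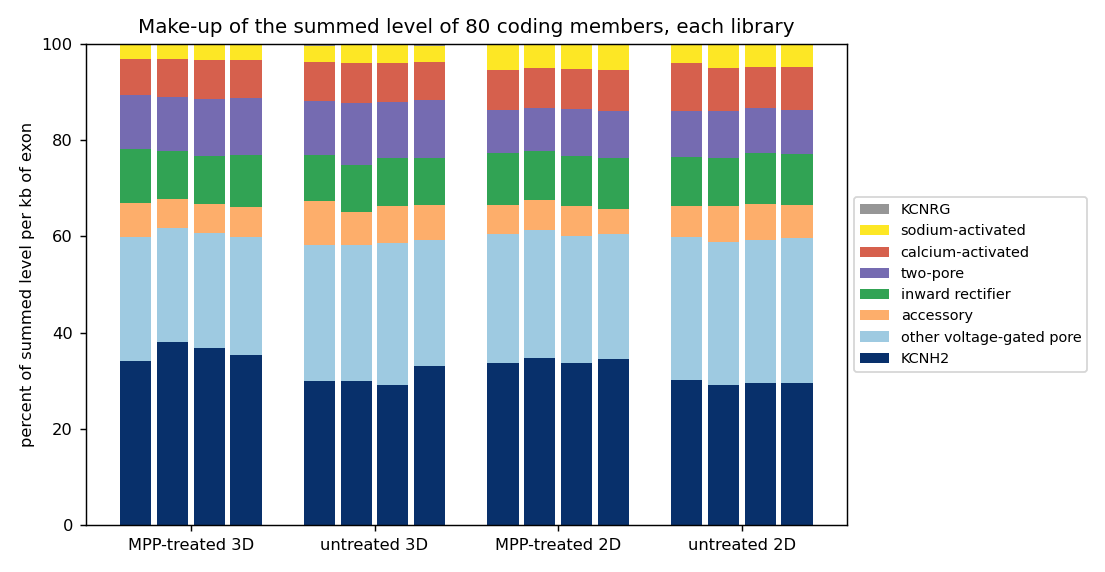
Share of each class in the level per kilobase of exon summed over 80 coding potassium channel genes, 1 bar per library (y axis in percent), with KCNH2 drawn apart from the other voltage-gated pores. The sum leaves out 3 voltage-gated pores that are not reported. KCNH2 takes between 34.1% and 38.1% in MPP-treated 3D, between 29% and 33% in untreated 3D, between 33.6% and 34.7% in MPP-treated 2D and between 29% and 30.1% in untreated 2D.

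KCNQ3, a subunit of the M-channel, was lower in 3D culture with and without MPP. KCNQ3 had 74, 97.3, 111 and 77.3 in MPP-treated 3D, 103, 139, 115 and 86.5 in untreated 3D, 426, 452, 487 and 597 in MPP-treated 2D, and 593, 488, 447 and 647 in untreated 2D, all as normalized counts. No 3D library came near a 2D library. It was lower in untreated 3D than in untreated 2D by 2.29 on the log2 scale (−2.29 ± 0.18, limma adjusted p = 6.38e-10) and lower in MPP-treated 3D than in MPP-treated 2D (−2.44 ± 0.18, adjusted p = 3.25e-10), which is 4.88-fold and 5.43-fold. MPP gave −0.30 ± 0.18 in 3D (adjusted p = 0.206) and −0.14 ± 0.18 in 2D (adjusted p = 0.562), neither past the threshold.

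KCNQ5, another M-current subunit, differed between formats in its response to the toxin. Its normalized counts were 323, 362, 526 and 398 in MPP-treated 3D, 250, 340, 345 and 254 in untreated 3D, 200, 199, 143 and 166 in MPP-treated 2D, and 402, 285, 268 and 382 in untreated 2D. The treated 2D libraries lay below all others. KCNQ5 fell with MPP in 2D (−0.90 ± 0.18, limma adjusted p = 0.000429), gave 0.43 ± 0.18 in 3D (adjusted p = 0.0669), and the difference of the effects was 1.33 ± 0.25 (adjusted p = 0.000639). In MPP-treated 3D it was higher than in MPP-treated 2D by 1.17 ± 0.18 (adjusted p = 1.84e-05), while untreated 3D against untreated 2D gave −0.16 ± 0.18 (adjusted p = 0.482). Per kilobase, KCNQ5 stood at 7.51 ± 1.01 times the level of KCNQ3 in MPP-treated 3D and 4.51 ± 0.512 times in untreated 3D, against 0.618 ± 0.164 times in MPP-treated 2D and 1.02 ± 0.0729 times in untreated 2D. The lengths merge all annotated exons of each gene, so the absolute size of these ratios depends on the annotation. The heart and epithelial subunit KCNQ1, chosen after its values were seen, rose with MPP in 3D by 0.32 ± 0.11 (adjusted p = 0.0223), a call lost in 6 of 29 alternatives, among them leaving out untreated 3D replicate 2 or 3 or MPP-treated 3D replicate 1 or 4.

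**Figure D3:**
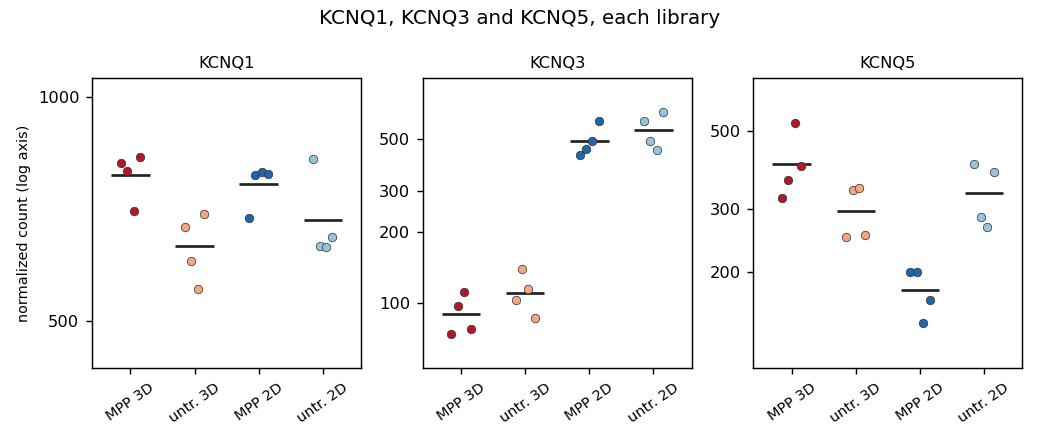
Normalized counts of KCNQ1, KCNQ3 and KCNQ5 in each library (points) with the group mean (line), on a log axis of its own for each gene. Every 3D library lies below every 2D library for KCNQ3, and for KCNQ5 the MPP-treated 2D libraries lie at 143 to 200.

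The KCNH family of ether-a-go-go channels held 8 tested genes. KCNH2, which carries the rapid delayed rectifier of heart and is abundant in neuroblastoma lines, had 16631, 19312, 18221 and 17266 in MPP-treated 3D, 13560, 13021, 11787 and 15761 in untreated 3D, 16615, 17520, 17186 and 17891 in MPP-treated 2D, and 14473, 13411, 13401 and 13997 in untreated 2D, as normalized counts. Treated libraries lay above untreated ones in both formats. KCNH2 rose with MPP by 0.41 ± 0.07 in 3D and 0.32 ± 0.07 in 2D (limma adjusted p = 0.000176 and 0.00159), and untreated 3D against untreated 2D gave −0.04 ± 0.07 (adjusted p = 0.705). Its close relative KCNH6 had 1490, 1531, 1580 and 1297 in MPP-treated 3D, 2558, 2287, 2345 and 2552 in untreated 3D, 2115, 2009, 2065 and 1836 in MPP-treated 2D, and 2331, 2372, 2355 and 2279 in untreated 2D. The treated 3D libraries were the lowest, and KCNH6 fell with MPP in 3D (−0.73 ± 0.07, adjusted p = 9.97e-08) and less in 2D (−0.22 ± 0.07, adjusted p = 0.0245), with a difference of −0.51 ± 0.10 (adjusted p = 0.00154). The 2D call was lost without untreated 2D replicate 2 or 3 or MPP-treated 2D replicate 4, and with equal library totals (−0.12, adjusted p = 0.255).

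KCNH1, whose channel is expressed in brain and in many tumours, was the lowest in treated 3D. It had 294, 215, 263 and 265 in MPP-treated 3D, 390, 454, 320 and 382 in untreated 3D, 444, 511, 402 and 583 in MPP-treated 2D, and 931, 778, 779 and 1062 in untreated 2D, as normalized counts. The groups of each pair did not overlap. KCNH1 fell with MPP in 3D and 2D (−0.57 ± 0.14 and −0.87 ± 0.14, limma adjusted p = 0.00344 and 6.26e-05), and was lower in untreated 3D than in untreated 2D (−1.20 ± 0.14, adjusted p = 5.09e-07) and in MPP-treated 3D than in MPP-treated 2D (−0.90 ± 0.14, adjusted p = 3.26e-05). Annotated genes on either strand share 53% of its exon bases. KCNH3, named after its values were seen, was lower in the same 4 comparisons, with log2 changes of −0.65 for MPP in 3D, −0.64 for MPP in 2D, −0.60 in the untreated pair and −0.60 in the treated pair. KCNH8, of the same subfamily, rose with MPP in 2D (0.74 ± 0.12, adjusted p = 4.91e-05). KCNH8 in 3D gave 0.31 ± 0.12 (adjusted p = 0.048), a call lost in 15 of 29 alternatives, in 11 of them by leaving out 1 library. KCNH4 had between 557 and 601 in MPP-treated 3D and between 563 and 651 in untreated 3D, against between 308 and 382 in MPP-treated 2D and between 299 and 409 in untreated 2D. It was higher in 3D in both pairs (0.71 ± 0.11 with MPP and 0.80 ± 0.11 untreated, adjusted p = 2.86e-05 and 4.33e-06). KCNH7 had between 199 and 307 in MPP-treated 3D and between 115 and 176 in untreated 3D, with 0.78 ± 0.19 for MPP (adjusted p = 0.00234), against between 220 and 356 in MPP-treated 2D and between 160 and 216 in untreated 2D, with 0.41 ± 0.19 (adjusted p = 0.0925).

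KCND3, an A-type channel that shapes pacemaking in dopamine neurons, had 1.81, 0, 13 and 1.84 in MPP-treated 3D, 12.7, 28.2, 33.7 and 8.95 in untreated 3D, and 0 in all 8 of the 2D libraries, as normalized counts. It had 18 reads in MPP-treated 3D, 66 reads in untreated 3D and none in 2D. With 3 reads per group as the floor, KCND3 was at least 29.8-fold higher in untreated 3D than in untreated 2D, and at least 5.99-fold higher in MPP-treated 3D than in MPP-treated 2D. Untreated 3D against untreated 2D was called (limma adjusted p = 0.000527), and MPP-treated 3D against MPP-treated 2D was not (adjusted p = 0.145). The 4 libraries that took KCND3 past the filter were all 3D. It was thus tested only through the format where it is high, and the p-values add no support to the reads. The fall with MPP in 3D (−2.57 ± 0.90, adjusted p = 0.0308) was lost in 9 of 28 alternatives, including edgeR (adjusted p = 0.0555), DESeq2 (adjusted p = 0.0758) and leaving out untreated 3D replicate 2 or 3 or MPP-treated 3D replicate 1, 2 or 4.

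Silent subunits form no channel alone and change the gating of KCNB channels. Of the 7 tested, which were of the KCNF, KCNG and KCNS families, KCNG1 had the highest normalized counts. KCNG1 had 1937, 1907, 1708 and 1972 in MPP-treated 3D, 650, 647, 612 and 813 in untreated 3D, 1720, 1839, 1746 and 1724 in MPP-treated 2D, and 1335, 1179, 1110 and 1041 in untreated 2D, as normalized counts. Untreated 3D was the lowest group, and the treated groups overlapped. KCNG1 rose with MPP by 1.47 ± 0.09 in 3D and 0.60 ± 0.09 in 2D (limma adjusted p = 4.15e-11 and 3.63e-05), the difference was 0.88 ± 0.13 (adjusted p = 4.95e-05), and untreated 3D was lower than untreated 2D (−0.78 ± 0.09, adjusted p = 5.3e-07). KCNS3, at a lower level, also had its lowest mean in untreated 3D, with 103, 78.5, 97.2 and 79.1 in MPP-treated 3D, 27.4, 47, 19.6 and 20.9 in untreated 3D, 37.1, 77.3, 56.8 and 52.8 in MPP-treated 2D, and 70.7, 39.1, 61.3 and 66.7 in untreated 2D. It rose with MPP in 3D by 1.68 ± 0.30 (adjusted p = 0.000161) and gave −0.10 ± 0.30 in 2D (adjusted p = 0.839), a difference of 1.78 ± 0.43 (adjusted p = 0.00572). KCNS3 was lower in untreated 3D than in untreated 2D (−1.07 ± 0.30, adjusted p = 0.00591), a call lost with untreated 3D replicates 1 and 3 left out (−0.86, adjusted p = 0.0623). KCNG3 had between 56.9 and 109 in MPP-treated 3D, between 31.3 and 84.2 in untreated 3D, between 143 and 228 in MPP-treated 2D and between 82.2 and 122 in untreated 2D, and was lower in MPP-treated 3D than in MPP-treated 2D (−1.11 ± 0.28, adjusted p = 0.00331).

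Accessory subunits of voltage-gated channels included the KCNIP calcium sensors, which assist KCND channels, and the KCNAB oxidoreductase-like subunits, which assist KCNA channels. All 4 tested KCNIP genes were called with MPP in 2D, 3 higher and 1 lower, beside 17.7% of all genes higher and 16.9% lower. With MPP in 3D 1 of the 4 was called, beside 34.6% of all genes. The difference of effects was called for 0 of the 4, beside 15.3% of all genes. KCNIP1 had 367, 202, 294 and 306 in MPP-treated 3D, 127, 115, 160 and 121 in untreated 3D, 178, 203, 125 and 160 in MPP-treated 2D, and 105, 107, 77 and 80.4 in untreated 2D, as normalized counts. Treated libraries lay above untreated ones, by 1.13 ± 0.20 in 3D and 0.84 ± 0.20 in 2D (limma adjusted p = 0.000144 and 0.00272). Its call in the untreated pair was lost in 16 of 29 alternatives. KCNIP4, a partner that slows inactivation, rose in 2D (0.56 ± 0.15, adjusted p = 0.00742), and KCNIP3, also known as a calcium-dependent repressor of transcription, rose in 2D by 1.99 ± 0.57 (adjusted p = 0.00977), with between 14.5 and 31.2 in MPP-treated 2D and between 1.72 and 8.22 in untreated 2D. KCNIP2 fell in 2D (−0.39 ± 0.13, adjusted p = 0.0218), lost without untreated 2D replicate 3 or MPP-treated 2D replicate 1 or 4, and with equal library totals (−0.29, adjusted p = 0.0952). KCNAB3 had 425, 361, 365 and 330 in MPP-treated 3D, 1015, 478, 588 and 714 in untreated 3D, 382, 319, 344 and 260 in MPP-treated 2D, and 428, 665, 615 and 485 in untreated 2D. It fell with MPP in both formats without overlap (−0.86 ± 0.18 and −0.74 ± 0.18, adjusted p = 0.000873 and 0.00348), while KCNAB2, the most abundant accessory gene by normalized count, gave −0.04 ± 0.11 and −0.17 ± 0.11 (adjusted p = 0.822 and 0.263).

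Of the 10 inward rectifiers tested, 5 rose and none fell with MPP in 3D (KCNJ4, KCNJ5, KCNJ9, KCNJ10 and KCNJ12), 1 rose and none fell with MPP in 2D (KCNJ4), and 3 fell in untreated 3D against untreated 2D (KCNJ2, KCNJ5 and KCNJ10). Of all genes tested, MPP in 3D raised 17.0% and lowered 17.6%, MPP in 2D raised 17.7% and lowered 16.9%, and 23.0% were lower in untreated 3D than in untreated 2D. KCNJ10, the potassium-clearing channel of glia, had 148, 141, 156 and 173 in MPP-treated 3D, 84.5, 38.7, 92.6 and 53.7 in untreated 3D, 133, 127, 122 and 121 in MPP-treated 2D, and 188, 181, 152 and 178 in untreated 2D, as normalized counts. Untreated 3D was the lowest group, and no untreated 3D library reached any other. KCNJ10 rose with MPP in 3D by 1.26 ± 0.22 (limma adjusted p = 0.000109) and gave −0.47 ± 0.22 in 2D (adjusted p = 0.104), a difference of 1.73 ± 0.31 (adjusted p = 0.000369), and was lower in untreated 3D than in untreated 2D (−1.44 ± 0.22, adjusted p = 1.31e-05). Its neighbour on chromosome 1, KCNJ9, a G-protein-gated channel of neurons and the most abundant rectifier, had between 1332 and 1625 in MPP-treated 3D, between 1131 and 1320 in untreated 3D, between 1295 and 1364 in MPP-treated 2D and between 1192 and 1469 in untreated 2D. KCNJ9 rose with MPP in 3D by 0.27 ± 0.08 (adjusted p = 0.0127), lost without MPP-treated 3D replicate 1 and in a fit of those 2 groups alone.

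KCNJ5, a G-protein-gated channel, had 120, 127, 107 and 145 in MPP-treated 3D, 82.3, 89.2, 70.2 and 46.2 in untreated 3D, 338, 356, 410 and 270 in MPP-treated 2D, and 271, 234, 205 and 294 in untreated 2D. KCNJ5 was far lower in 3D, by −1.82 ± 0.20 untreated and −1.44 ± 0.20 with MPP (limma adjusted p = 1.41e-07 and 5.35e-06), and within 3D it rose with MPP by 0.82 ± 0.20 (adjusted p = 0.00271). The strong rectifier KCNJ2, which holds the resting potential, had 95.7, 85.7, 146 and 166 in MPP-treated 3D, 158, 181, 126 and 116 in untreated 3D, 394, 307, 369 and 331 in MPP-treated 2D, and 264, 362, 357 and 387 in untreated 2D. Both 3D groups lay below both 2D groups (−1.24 ± 0.20 untreated and −1.55 ± 0.20 with MPP, adjusted p = 3.01e-05 and 2.59e-06). KCNJ12 rose with MPP in 3D (0.72 ± 0.20, adjusted p = 0.00667), although KCNJ18 next to it on chromosome 17 is a near-identical copy and reads of the pair are uncertain. KCNJ4 rose by 0.67 ± 0.20 in 3D and 0.60 ± 0.20 in 2D (adjusted p = 0.0132 and 0.0248), the first lost without untreated 3D replicate 3 or MPP-treated 3D replicate 3, the second without untreated 2D replicate 3 or 4 or MPP-treated 2D replicate 3 or 4, and with quantile normalization. The ATP-sensitive pores KCNJ8 and KCNJ11 passed in none of the 5 comparisons. KCNJ11 had between 98.2 and 146 in MPP-treated 3D, between 101 and 198 in untreated 3D, between 123 and 172 in MPP-treated 2D and between 114 and 164 in untreated 2D. KCNJ6, the G-protein-gated rectifier used as a marker of dopamine neurons, was not analysed here.

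**Figure D4:**
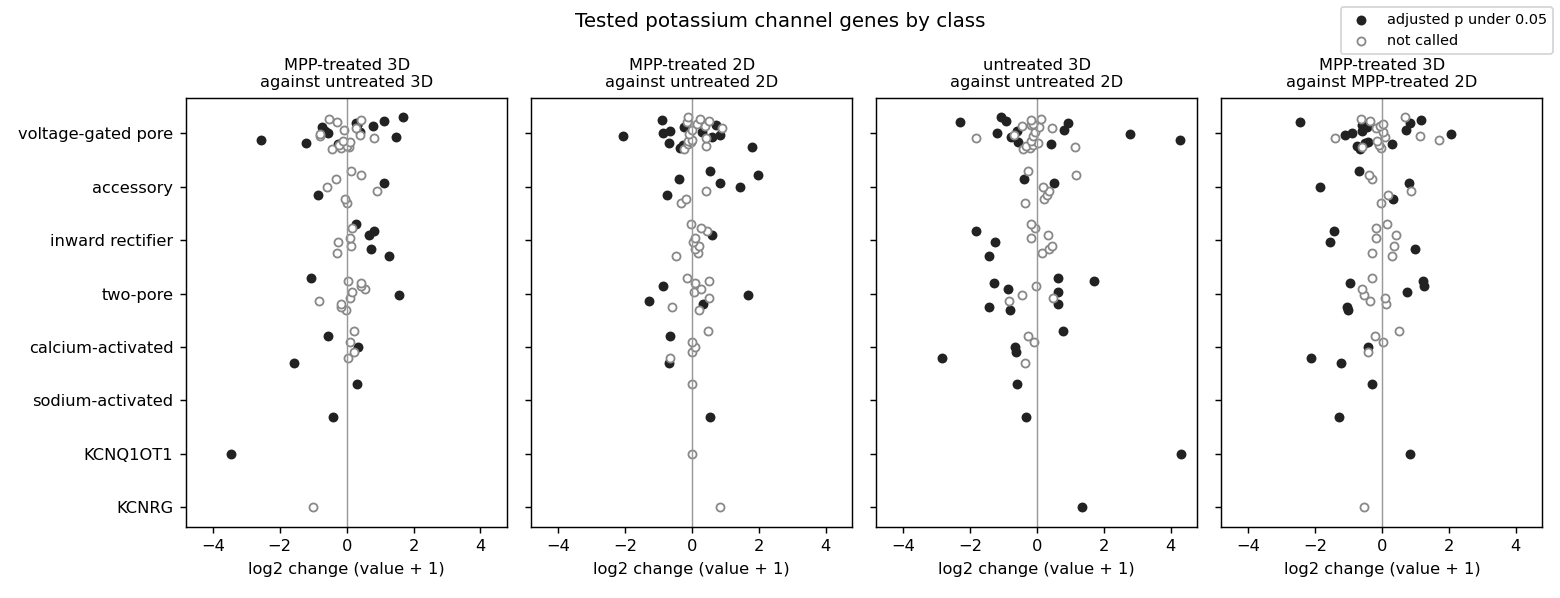
Log2 change of each of the 72 tested members by class (rows) in 4 comparisons (panels), on the log2(value + 1) scale, with filled points for an adjusted p under 0.05. Inward rectifiers called with MPP in 3D all lie to the right of 0, and those called in untreated 3D against untreated 2D all lie to the left.

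Of the 12 two-pore channels tested, 4 were higher and 4 lower in untreated 3D than in untreated 2D, where all genes also divided evenly (23.2% higher and 23.0% lower). MPP raised 1 and lowered 1 in 3D, and raised 2 and lowered 2 in 2D, beside 34.6% and 34.5% of all genes called. KCNK3, an acid-sensitive background channel and the most abundant of its class, had 3615, 3906, 3910 and 3791 in MPP-treated 3D, 3366, 3482, 3104 and 3566 in untreated 3D, 2173, 2219, 2425 and 2318 in MPP-treated 2D, and 2441, 2150, 2091 and 2075 in untreated 2D, as normalized counts. Every 3D library exceeded every 2D library, by 0.63 ± 0.07 untreated and 0.74 ± 0.07 with MPP (limma adjusted p = 1.6e-07 and 2.1e-08). KCNK1, a weakly rectifying channel, ran the other way, with between 313 and 377 in MPP-treated 3D and between 313 and 404 in untreated 3D, against between 615 and 809 in MPP-treated 2D and between 599 and 640 in untreated 2D (−1.02 ± 0.12 with MPP and −0.80 ± 0.12 untreated, adjusted p = 3.31e-07 and 6.36e-06). The mechanosensitive KCNK10 was also lower in untreated 3D than in untreated 2D (−1.43 ± 0.33, adjusted p = 0.00106).

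KCNK5, an alkaline-activated background channel, fell in treated dishes. It had 145, 163, 191 and 158 in MPP-treated 3D, 144, 108, 84.2 and 166 in untreated 3D, 54.9, 83.5, 60.1 and 75.7 in MPP-treated 2D, and 99.1, 179, 119 and 112 in untreated 2D. The treated 2D libraries lay below all others. KCNK5 fell with MPP in 2D (−0.87 ± 0.23, limma adjusted p = 0.00558) and gave 0.43 ± 0.23 in 3D (adjusted p = 0.158), a difference of 1.30 ± 0.33 (adjusted p = 0.00774). Its neighbour KCNK17, named after its values were seen, rose with MPP in both formats (1.58 ± 0.46 in 3D and 1.67 ± 0.46 in 2D, adjusted p = 0.00972 and 0.00691) at group means of 31.1 and 45.3 in MPP-treated 3D and MPP-treated 2D, against 9.43 and 13.2 in untreated 3D and untreated 2D. KCNK9, an acid-sensitive relative of KCNK3, fell with MPP in 3D (−1.05 ± 0.25, adjusted p = 0.00248), with between 42.4 and 70.5 in MPP-treated 3D and between 96.1 and 200 in untreated 3D. Its rise in untreated 3D against untreated 2D (0.62 ± 0.25, adjusted p = 0.0477) was lost in 15 of 29 alternatives. KCNK12, a silent two-pore subunit, was higher in untreated 3D than in untreated 2D by 0.63 ± 0.12 (adjusted p = 0.000221). Its difference of MPP effects (−0.52 ± 0.17, adjusted p = 0.0447) was lost in 14 of 28 alternatives, 12 of them leaving out 1 library.

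KCNMA1, the large-conductance channel opened by calcium and voltage together, had 92.1, 76.8, 127 and 113 in MPP-treated 3D, 327, 342, 262 and 270 in untreated 3D, 204, 198, 248 and 304 in MPP-treated 2D, and 370, 406, 355 and 381 in untreated 2D, as normalized counts. Treated libraries lay below untreated ones in both formats, and treated 3D lay lowest. KCNMA1 fell with MPP by 1.56 on the log2 scale in 3D (−1.56 ± 0.17, limma adjusted p = 3.01e-07) and in 2D (−0.68 ± 0.17, adjusted p = 0.00365), 2.95-fold and 1.6-fold, with a difference of −0.88 ± 0.24 (adjusted p = 0.015). KCNN3, a small-conductance channel of dopamine neurons, had 365, 391, 456 and 491 in MPP-treated 3D, 610, 634, 735 and 543 in untreated 3D, 472, 453, 440 and 602 in MPP-treated 2D, and 848, 660, 711 and 833 in untreated 2D. It fell in both formats (−0.57 ± 0.13 in 3D and −0.64 ± 0.13 in 2D, adjusted p = 0.00163 and 0.000607), and the difference of effects was 0.07 ± 0.18 (adjusted p = 0.855). KCNN1, the most abundant of the class per kilobase, passed in none of the 5 comparisons, with between 1574 and 1778 in MPP-treated 3D, between 1408 and 1769 in untreated 3D, between 1615 and 1791 in MPP-treated 2D and between 1519 and 1890 in untreated 2D.

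The 3 tested beta subunits of KCNMA1 were all called lower in untreated 3D than in untreated 2D, as were 23.0% of all genes. KCNMB4, the beta subunit of neurons, had 817, 809, 869 and 800 in MPP-treated 3D, 684, 677, 658 and 603 in untreated 3D, 977, 1131, 1181 and 1105 in MPP-treated 2D, and 1146, 1054, 931 and 1003 in untreated 2D. The 3D libraries lay below the 2D libraries, by −0.65 ± 0.09 untreated and −0.41 ± 0.09 with MPP (limma adjusted p = 2.69e-06 and 0.000748), and KCNMB4 rose with MPP in 3D (0.33 ± 0.09, adjusted p = 0.0057). KCNMB2 and KCNMB3 are named as the others of the 3. KCNMB2 gave −2.82 ± 0.66 untreated (adjusted p = 0.00141) at a mean of 4.89 in untreated 3D and 28 in untreated 2D. The call of KCNMB3 (−0.62 ± 0.25, adjusted p = 0.0486) was lost in 18 of 29 alternatives, and other genes share 47.5% of its exon bases.

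The sodium-activated KCNT1 was the only member called in opposite directions by MPP in the 2 formats. KCNT1 had 1140, 1300, 1221 and 1221 in MPP-treated 3D, 1481, 1674, 1460 and 1881 in untreated 3D, 2946, 2827, 3193 and 2800 in MPP-treated 2D, and 1743, 2126, 2112 and 2143 in untreated 2D, as normalized counts. Treated libraries were below untreated ones in 3D and above them in 2D, without overlap. It fell with MPP in 3D (−0.41 ± 0.09, limma adjusted p = 0.00105) and rose in 2D (0.54 ± 0.09, adjusted p = 6.37e-05), a difference of −0.94 ± 0.12 (adjusted p = 9.62e-06). KCNT1 was lower in MPP-treated 3D than in MPP-treated 2D by −1.27 ± 0.09 (adjusted p = 1.49e-10). The untreated pair gave −0.33 ± 0.09 (adjusted p = 0.00452), a call lost with untreated 3D replicates 1 and 3 left out (−0.19, adjusted p = 0.13). KCNT2, its relative, had between 1071 and 1238 in MPP-treated 3D, between 798 and 1009 in untreated 3D, between 1266 and 1590 in MPP-treated 2D and between 1226 and 1534 in untreated 2D, and was lower in untreated 3D than in untreated 2D (−0.59 ± 0.10, adjusted p = 2.59e-05).

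KCNQ1OT1 is a long non-coding RNA read antisense to KCNQ1 and known for silencing an imprinted gene cluster. Its normalized counts were 115, 86.6, 96.3 and 202 in MPP-treated 3D, 1263, 1037, 1531 and 1418 in untreated 3D, 58.1, 78.2, 66.8 and 59 in MPP-treated 2D, and 34.5, 57.6, 108 and 80.4 in untreated 2D. Only untreated 3D was high. It was higher in untreated 3D than in untreated 2D by 4.31 ± 0.28 (limma adjusted p = 2.79e-11), fell with MPP in 3D (−3.45 ± 0.28, adjusted p = 2.62e-09) and gave 0.01 ± 0.28 in 2D (adjusted p = 0.983), a difference of −3.46 ± 0.40 (adjusted p = 1.3e-06). MPP-treated 3D against MPP-treated 2D gave 0.85 ± 0.28 (adjusted p = 0.0198), lost without MPP-treated 2D replicate 1 or MPP-treated 3D replicate 4. Its exons cover 91667 annotated bases within KCNQ1, and with no strand stated for the counting, its reads cannot be told apart from unspliced KCNQ1. KCNQ1 itself gave −0.11 ± 0.11 in untreated 3D against untreated 2D (adjusted p = 0.402). KCNRG, whose product interferes with channel assembly, was higher in untreated 3D than in untreated 2D by 1.34 on the log2 scale, a call lost in 8 of 28 alternatives, and TRIM13 shares 66.8% of its exon bases.

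**Figure D5:**
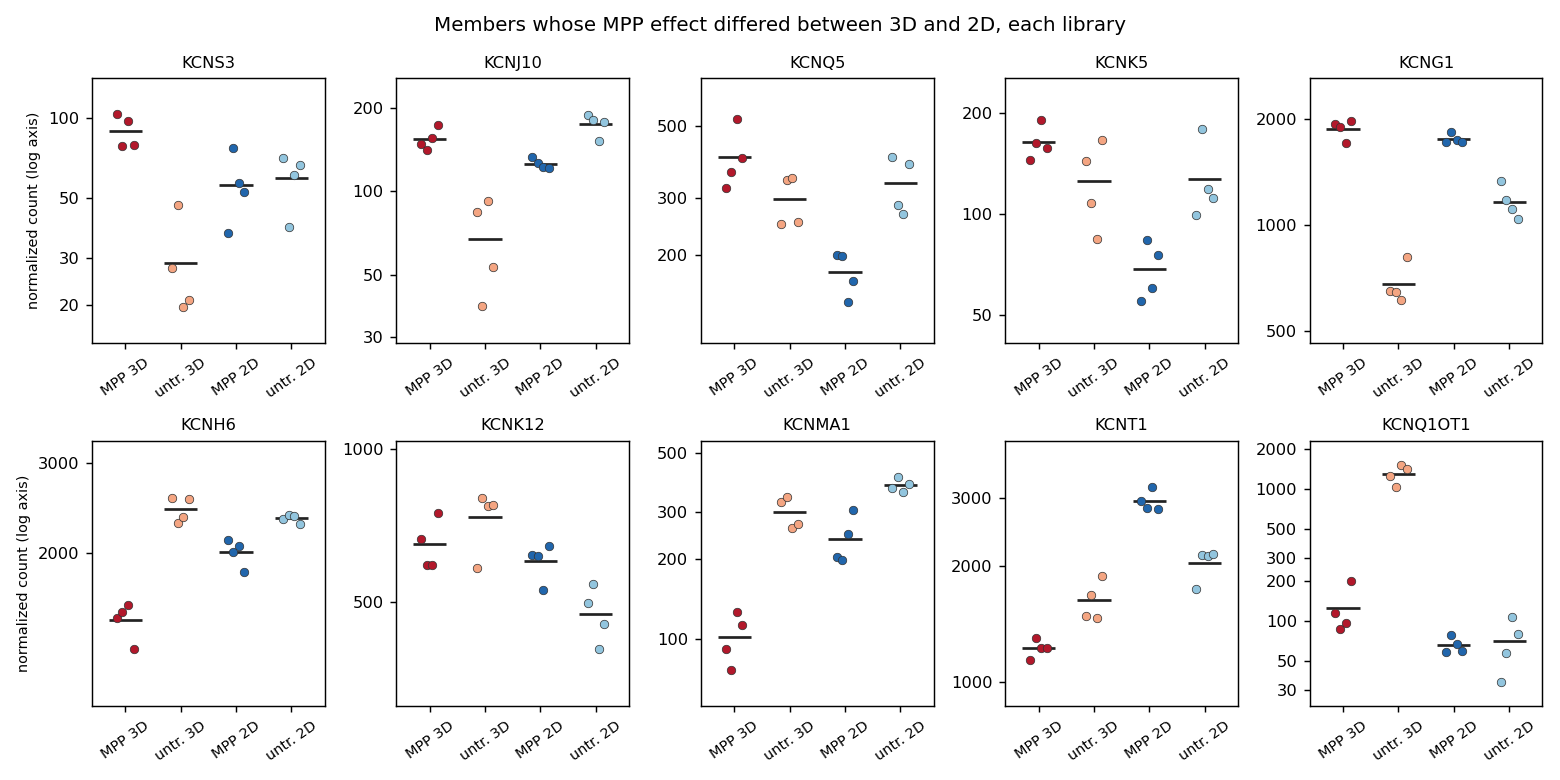
Normalized counts in each library (points, with the group mean as a line) of the 10 members whose MPP effect differed between 3D and 2D, on a log axis of its own for each gene, ordered by the difference from KCNS3 to KCNQ1OT1. In the upper row the treated 3D mean lies above the untreated 3D mean for every gene, and in the lower row below it.

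The 12 members below the filter were KCNA4, KCNC2, KCNS2 and KCNV2 of the voltage-gated pores, KCNE3 and KCNE4, KCNJ1, KCNJ13 and KCNJ18, KCNK16, KCNN2 and KCNMB1. Their mean normalized count over the 16 libraries was 5.72 or less, the value of KCNN2, and none was tested.

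Of 31 channel partners, genes whose products anchor, assist or modulate these channels, 29 were tested, and 17 were lower and 1 higher in untreated 3D than in untreated 2D, and 16 lower and 2 higher in MPP-treated 3D than in MPP-treated 2D. Over all genes 23.0% were lower and 23.2% higher in the untreated pair, and 19.9% lower and 19.0% higher in the treated pair, and the list was drawn up with earlier results of these data known. Their median log2 change was −0.35 and −0.30, beside 0.01 and 0.01 over all genes. The partners and pump genes named here were chosen after their values were seen. ANK2, the scaffold protein ankyrin-B, averaged 1901 ± 341 in MPP-treated 3D, 1923 ± 282 in untreated 3D, 6022 ± 1458 in MPP-treated 2D and 7002 ± 981 in untreated 2D (SD, n = 4 each). DLG2, a synaptic scaffold that binds potassium channels, averaged 3243 ± 420, 2249 ± 235, 9045 ± 1373 and 7907 ± 630 in the same order. The untreated pair gave −1.86 ± 0.14 for ANK2 and −1.82 ± 0.10 for DLG2 (limma adjusted p = 5.05e-10 and 2.26e-12). AMIGO1, an auxiliary subunit of KCNB channels, rose with MPP in 3D (0.63 ± 0.13, adjusted p = 0.000613) and fell in 2D (−0.75 ± 0.13, adjusted p = 0.00012), a difference of 1.38 ± 0.18 (adjusted p = 1.04e-05). The sulfonylurea receptors that complete ATP-sensitive channels split, with ABCC8 higher in untreated 3D than in untreated 2D (0.91 ± 0.16, adjusted p = 7.19e-05) and ABCC9 lower (−1.82 ± 0.51, adjusted p = 0.00556). MPP raised 5 partners and lowered 3 in 3D, and raised 6 and lowered 8 in 2D, beside 34.6% and 34.5% of all genes called.

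Genes of the sodium pump and of potassium-coupled chloride transport (16 of 18 tested) were 2 higher and 4 lower with MPP in 3D, 3 higher and 2 lower with MPP in 2D, 3 higher and 3 lower in the untreated pair, and 2 higher and 8 lower in the treated pair. Over all genes, 34.6%, 34.5%, 46.1% and 38.9% were called in these 4 comparisons, taken in the same order. ATP1B1, the beta subunit of the pump, fell with MPP in 3D (−0.78 ± 0.10, limma adjusted p = 1.57e-06), and its difference of effects was −0.93 ± 0.14 (adjusted p = 3.08e-05). The related HCN and CNG cation channels (6 of 10 tested) were 1 higher and 5 lower in the untreated pair and 4 lower in the treated pair, where 46.1% and 38.9% of all genes were called. The intracellular potassium channels (4 of 4 tested) held 2 lower in the untreated pair, 1 higher and 1 lower in the treated pair, and none past the threshold with MPP in either format.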

How the data were processed

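RNA-seq was deposited for 16 libraries of SH-SY5Y cultures in 4 groups of 4. The tools were STAR, featureCounts, DESeq2, FastQC and CASAVA 1.8.2, with the GRCh38.p13 build, per the submitters' processing notes. Whether counting used strand is not stated there. The labels' protocols name poly-T selection and NEBNext Ultra RNA libraries. The deposited signal values are read counts that the authors divided by a size factor per library. Whole reads were recovered for 100.0% of values within 0.01 read, and gave 24589435 to 46359070 reads per library. Because the values are normalized, limma 3.58.1 in R 4.3.3 was fitted to log2(value + 1) of 16984 genes that reached 10 in 4 or more libraries, with the 4 groups in 1 model. Alternatives used other scalings, pseudocounts and filters, left out libraries, and ran edgeR 4.0.16 and DESeq2 1.42.0 on recovered reads. The code was tested on simulated data. A floor of 3 reads over the group stood in for groups at 0. That floor covers counting error only, while SDs and standard errors measure the spread between libraries. Exon lengths came from GENCODE and merged the exons of all annotated transcripts of a gene, so levels compared between genes depend on that annotation.

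Members named were those with a mean of 50 or more, called without overlap of the groups, that had the 6 highest or 6 lowest changes of a pairwise comparison or the 4 highest or 4 lowest differences of effects, the 3 most abundant of each class, and KCNQ3, KCNH2, KCND3, KCNJ11, KCNN3, KCNMA1 and KCNIP3. Another 3 members were fitted and counted with the rest but are not reported here, and were left out of the sums per kilobase and of the search for libraries apart from their group. Members and lists were chosen with earlier results of these data known. Same-numbered replicates did not pair, since 0 of 24 correlations of their deviations exceeded 0.1.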

Additional observations from a re-analysis of the deposited data

Results flagged for a closer look

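The effect of MPP differed between 3D and 2D by the test of the difference itself for 10 members. The log2 difference, 3D minus 2D, was 1.78 for KCNS3, 1.73 for KCNJ10, 1.33 for KCNQ5, 1.30 for KCNK5 and 0.88 for KCNG1. It was −0.51 for KCNH6, −0.52 for KCNK12, −0.88 for KCNMA1, −0.94 for KCNT1 and −3.46 for KCNQ1OT1.

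In 14 of 276 groups of 4 libraries, 1 library stood apart from its group, where chance gives about 1 in 20. In MPP-treated 3D these normalized counts were 13 for KCND3 (replicate 3), 47.9 for KCNE2 (replicate 1), 520 for KCNJ8 (replicate 3) and 28 for KCNK15 (replicate 1). In untreated 3D they were 43.3 for KCNAB1 (replicate 1), 584 for KCNK12 (replicate 1) and 200 for KCNK9 (replicate 2). In MPP-treated 2D they were 29 for KCNH5 (replicate 3), 356 for KCNH7 (replicate 4), 80.1 for KCNK17 (replicate 4) and 687 for KCNQ1 (replicate 1). In untreated 2D they were 164 for KCNJ11 (replicate 1), 825 for KCNQ1 (replicate 1) and 1743 for KCNT1 (replicate 1).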

How the results depend on the processing

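The counts of members called stayed within 1.5 times the reported ones in each alternative run. Leaving out 1 library in turn gave 25 to 30 members called with MPP in 3D, 21 to 30 with MPP in 2D, 27 to 33 in the untreated pair, 29 to 35 in the treated pair and 9 to 11 for the difference of effects. With the replicate block the counts were 28, 26, 28, 34 and 10 in the same order, and the numbers did not pair the libraries. edgeR gave 27, 27, 28, 36 and 10, and DESeq2 gave 30, 30, 32, 36 and 12. Leaving out untreated 3D replicates 1 and 3 together, chosen after seeing the data, gave 23, 30, 31, 34 and 11. Of 134 calls over 360 results of members, 94 held in every alternative. In all, 248 results of alternatives lost a call, 84 gained one and 0 reversed. Low counts limit KCND3, KCNMB2, KCNK17 and KCNIP3.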
